A study of Rattus norvegicus with 12 samples.

Results

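The comparison described here set rats whose adrenal glands had been removed 7 days earlier (7-day ADX, here ADX) against rats that had the sham operation for adrenalectomy (sham-ADX, here sham). Its members were the libraries so titled, 2 of ADX and 2 of sham, which are 4 of the 12 libraries in the series. All animals were male wild type Wistar rats aged 12 weeks, and the tissue was the block of hypothalamus that contains the paraventricular nucleus (PVH). The other 8 libraries were 2 each of 12-day high corticosterone (high Cort), ADX with a corticosterone supplement (supplemented ADX), and acute corticosterone at 1 h and at 3 h. They entered the fit to measure the spread between replicates, and their levels are given for some genes further on. Whether each replicate came from a single animal or from pooled animals was not in the labels, nor what hormone levels the animals had, or whether the ADX rats were given salt to drink.

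Corticotropin-releasing hormone (Crh) and vasopressin (Avp) from PVH neurons drive the pituitary to release adrenocorticotropin, which makes the adrenal cortex secrete corticosterone. Corticosterone acts on glucocorticoid and mineralocorticoid receptors (Nr3c1 and Nr3c2) in the brain and restrains the same neurons, the negative feedback of the stress axis. Adrenalectomy removes corticosterone and also aldosterone and the adrenaline of the adrenal medulla, so the comparison asked what 7 days without adrenal hormones changed in the RNA of this tissue.

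The libraries held 25724232 and 27797278 fragments in sham and 33137737 and 31262274 in ADX, and 12856 of 17310 genes had enough fragments to be tested. Levels below are fragments scaled to library size by TMM (CPM), given for the 2 sham libraries and then the 2 ADX libraries, n = 2 per group. A difference is the log2 fold change of ADX over sham ± its standard error, tested with edgeR's quasi-likelihood method and adjusted after Benjamini and Hochberg over all genes. Genes with an adjusted p under 0.05 are referred to as called. As replicates are not tied to animals, these p values reflect the spread among the libraries alone, which may be technical, and in bulk tissue fewer cells of a type and less RNA per cell cannot be told apart. The PVH transcription factors Sim1 and Otp were present in every library, at 5.26 and 6.51 against 7.10 and 6.49 FPKM for Sim1 and at 22.7 and 28.2 against 32.5 and 28.3 FPKM for Otp, where FPKM is the authors' value per length of transcript. The thalamic kinase gene Prkcd, at 99.9 and 163 against 59.6 and 72.8 FPKM, was present as well.

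Thalamus markers differed between libraries. A thalamus score, the mean log2 CPM of 12 marker genes, was 5.65 and 6.27 in sham and 5.48 and 5.61 in ADX. Sham replicate 2 stood above the other 3 libraries. None of the 12 markers was called at an adjusted p under 0.05 (0 higher and 2 lower at an unadjusted p under 0.05), and all 12 had negative log2 fold changes, with a median of -0.48. PVH lineage markers averaged 4.36 and 4.34 log2 CPM in sham and 4.52 and 4.46 in ADX, and general neuron markers 8.83 and 8.87 against 8.71 and 8.74. A fit with the thalamus score as a covariate was also made, and its outcome for the called genes is given below.

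Few genes passed at this depth and number of replicates. The test called 30 genes, 0.233% of those tested, of which 17 rose in ADX (0.132%) and 13 fell (0.101%). At an unadjusted p under 0.05 there were 1647 of the 12856 genes tested, 671 higher and 976 lower. Unadjusted counts of the gene lists below are to be read beside these. In all 30 called genes the libraries of the groups did not overlap, an order that 47.2% of all genes tested also had, 22.2% with ADX above and 25% with ADX below. A positive log2 fold change was found in 48.3% of all genes tested. Most changes were small. Only Heph and Top2a moved by 2-fold or more, and the size of the log2 fold change ran from 0.22 to 1.55.

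**Figure D1:**
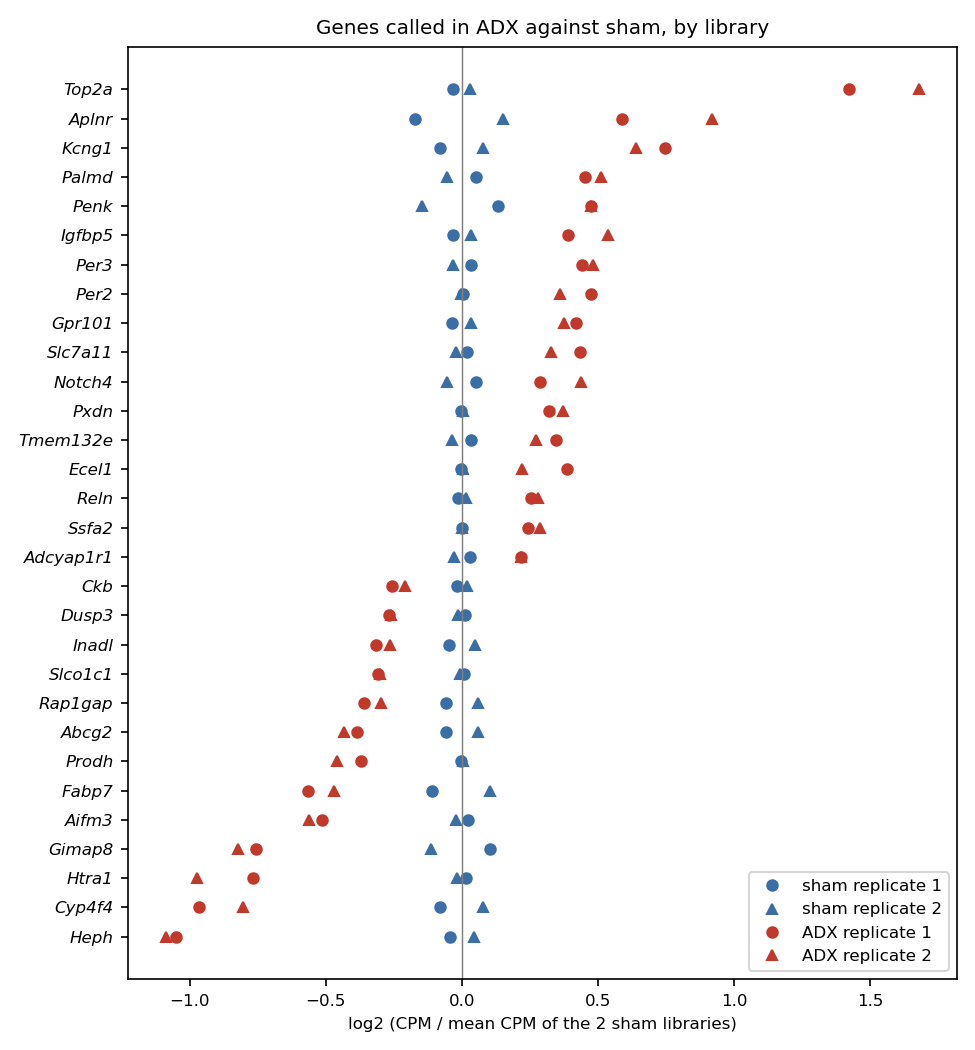
The 30 called genes, 1 per row, with the level in each library as log2 of CPM over the mean CPM of the 2 sham libraries (x axis); sham is blue, ADX red, circles are replicate 1 and triangles replicate 2. The sham and ADX points are separate in every row, from Heph at the low end to Top2a at the high end.

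**Figure D2:**
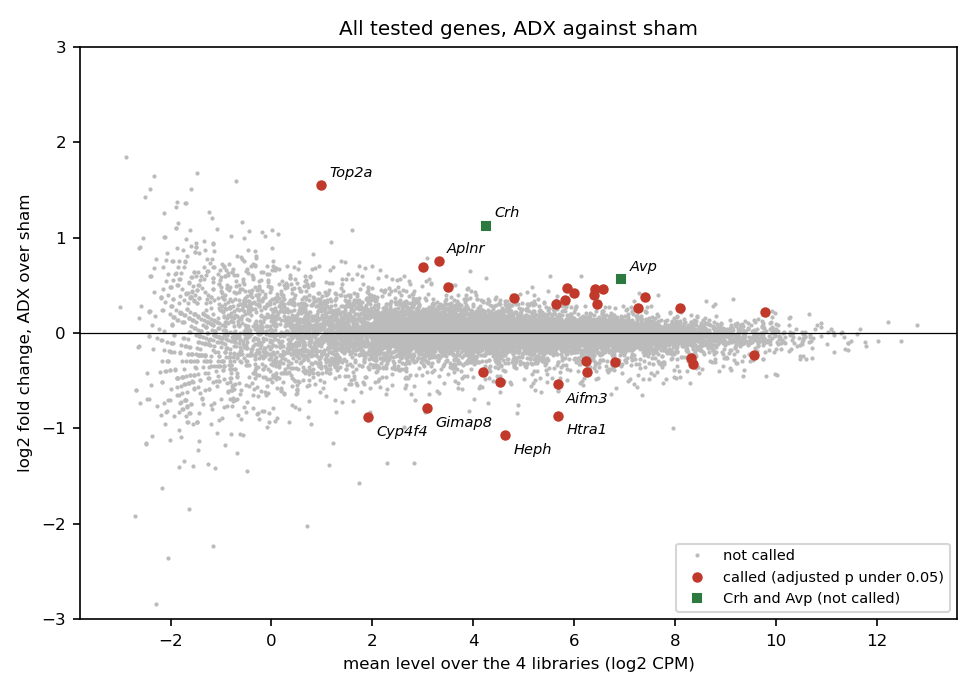
Each point is a tested gene, with its mean level over the 4 libraries in log2 CPM (x axis) and its log2 fold change of ADX over sham (y axis). Called genes are red, Crh and Avp, which were not called, are green squares, and 1 gene with a log2 fold change of 11.05 (Rpl37a-ps1) lies beyond the axis; the called genes lie at all levels above about 1 CPM.

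Htra1 and Per3 were the only called genes that passed the test in each of the 4 fits that left out 1 library. Htra1, which encodes a secreted serine protease that cuts matrix and growth factor binding proteins, stood at 67.1 and 65.6 CPM in sham and at 39.0 and 33.8 CPM in ADX. It fell by 45.1% (-0.86 ± 0.08, adjusted p = 0.00103 by edgeR's quasi-likelihood test), and its adjusted p without any 1 library was at most 0.0118. Per3 and Per2 encode period proteins, which enter the nucleus and repress their own transcription in the circadian clock. Per3 stood at 73.8 and 70.4 CPM in sham and at 97.9 and 100.6 CPM in ADX, a rise of 37.6% (0.46 ± 0.05, adjusted p = 0.00216). Per2 stood at 54.8 and 54.4 CPM in sham and at 75.7 and 70.1 CPM in ADX, a rise of 33.7% (0.42 ± 0.05, adjusted p = 0.00411). In all 3 genes the sham libraries lay within a few percent of each other and well apart from the ADX libraries. Per2 lost the call in 1 of the 4 fits without a library, where its adjusted p was 0.0759.

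The 250 bases before the start of these genes are shown because they are the genes the comparison rests on most firmly, and Per2 was added after its values were seen because it rose with Per3. They are RefSeq sequences of the build GRCr8, written from 5′ to 3′ on the strand of the gene. Capitals mark matches to motifs searched on both strands, which were the E-box CACGTG, the E-prime box CACGTT, the D-box TTATGTAA, the cAMP response element TGACGTCA and the AGAACA sequence that makes up each arm of a glucocorticoid response element.
Htra1 promoter, chr1:194927819-194928068, plus strand: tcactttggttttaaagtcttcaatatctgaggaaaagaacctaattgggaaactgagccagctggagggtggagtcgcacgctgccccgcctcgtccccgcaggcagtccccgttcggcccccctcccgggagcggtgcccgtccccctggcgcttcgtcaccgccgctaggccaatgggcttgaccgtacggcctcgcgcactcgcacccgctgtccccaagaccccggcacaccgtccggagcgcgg
Per3 promoter, chr5:166777801-166778050, minus strand: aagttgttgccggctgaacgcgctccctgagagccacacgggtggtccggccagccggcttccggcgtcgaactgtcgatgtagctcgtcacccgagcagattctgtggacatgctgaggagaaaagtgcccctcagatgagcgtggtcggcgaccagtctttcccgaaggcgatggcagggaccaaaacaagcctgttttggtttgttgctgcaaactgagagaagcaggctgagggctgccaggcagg
Per2 promoter, chr9:99496994-99497243, minus strand: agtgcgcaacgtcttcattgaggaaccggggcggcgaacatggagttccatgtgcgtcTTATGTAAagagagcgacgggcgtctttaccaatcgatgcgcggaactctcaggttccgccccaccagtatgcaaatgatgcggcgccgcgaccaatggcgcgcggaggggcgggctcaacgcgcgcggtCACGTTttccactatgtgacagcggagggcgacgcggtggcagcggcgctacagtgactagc

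In the Per2 window the D-box, a site for the PAR-type factors such as Dbp, began 192 bases before the start, and the E-prime box, a variant of the site for the Clock and Bmal1 pair, began 62 bases before it. None of the 5 motifs was found in the windows of Per3 and Htra1, which says only that these letters are absent there. Of the 30 called genes, the 23 with exactly 1 promoter among the RefSeq sequences were counted. The percentages are over all 33469 promoters, without that restriction, so the 2 sets are not fully alike. Of those 23, the E-box was found in 2 (Reln and Tmem132e), where 5.59% of 33469 promoters held it, and the E-prime box in 2 (Gimap8 and Per2), against 4.07%. The D-box was found in 1 (Per2), against 0.828%. The cAMP response element was found in 1 (Abcg2), against 1.59%. The AGAACA sequence was found in 2 (Gimap8 and Rap1gap), against 17.5% of promoters.

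The other clock genes had log2 fold changes of both signs, and none of them was called. Of 22 clock genes tested, Per2 and Per3 rose and none fell, 10 had a positive and 12 a negative log2 fold change, and the median was -0.04 (all genes -0.0045), which turned positive with the thalamus score and without sham replicate 2. Nr1d1, the nuclear receptor that represses Bmal1, stood at 94.9 and 101.1 CPM in sham and at 73.0 and 75.6 CPM in ADX and did not pass (-0.40 ± 0.08, adjusted p = 0.0566). An alternative test, DESeq2, called it (adjusted p = 0.000734). Nr1d1 passed in 7 of 17 alternatives, and not by edgeR with the thalamus score (adjusted p = 0.0663). Cry1, the partner of the period proteins, stood at 23.1 and 21.5 against 29.1 and 26.0 CPM (0.31 ± 0.07, adjusted p = 0.0944). The activators Arntl (the gene of Bmal1) and Npas2 had log2 fold changes of -0.26 ± 0.06 (adjusted p = 0.103) and -0.50 ± 0.11 (adjusted p = 0.134). Both ADX libraries lay above sham in 6 of the 22 genes and below it in 8, and in the other 8 the groups overlapped. The share without overlap was 63.6%, against 47.2% of all genes (22.2% with ADX above and 25% below). Per1, a period gene that glucocorticoids are known to induce, stood at 40.2 and 48.7 against 55.2 and 49.4 CPM (0.23 ± 0.08, adjusted p = 0.251). The output gene Dbp, at 46.7 and 54.6 against 54.5 and 51.9 CPM, overlapped between the groups. The labels did not give the time of day at which the animals were killed.

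In the stress axis itself 1 gene of 28 tested was called. Adcyap1r1, the receptor through which the peptide PACAP excites Crh neurons, stood at 834.9 and 800.4 CPM in sham and at 949.9 and 949.8 CPM in ADX, a rise of 16.2% (0.22 ± 0.04, adjusted p = 0.049). It lost the call with the thalamus score (0.17, adjusted p = 0.163) and kept it in 1 of the 4 fits without a library. Crh stood at 10.5 and 13.5 CPM in sham and at 25.6 and 26.9 CPM in ADX, which gave the highest log2 fold change of the list, and did not pass (1.13 ± 0.20, 95% interval 0.68 to 1.57, adjusted p = 0.0695). Its call depended on which libraries set the spread. It passed in a fit of the 4 libraries alone (1.13, adjusted p = 0.018), with a replicate block in those 4 and without the acute 1 h libraries, and missed by little in the fit of the 6 libraries of the same processing run (adjusted p = 0.0504). The ADX libraries lay well above both sham libraries, but each leave-one-out fit gave an adjusted p between 0.102 and 0.352.

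Avp, which the same neurons make together with Crh and which magnocellular neurons make for the blood, stood at 95.2 and 103.1 against 145.0 and 148.2 CPM (0.56 ± 0.12, interval 0.30 to 0.83, adjusted p = 0.121). It too passed in the fit of the 4 libraries (adjusted p = 0.00738), and it passed with DESeq2, an alternative test (adjusted p = 2.48e-06). Avp passed in only 3 of 17 alternatives. By edgeR it did not pass in the fit of the 6 libraries (adjusted p = 0.122) or with the thalamus score (adjusted p = 0.182). Crhr2, a receptor for the urocortins, stood at 2.39 and 2.71 against 4.63 and 3.66 CPM (0.70 ± 0.19, adjusted p = 0.145). The main receptor gene of the hormone, Crhr1, stood at 13.3 and 11.9 against 11.1 and 10.8 CPM (-0.20 ± 0.09, adjusted p = 0.371). PACAP itself (Adcyap1) stood at 13.4 and 11.9 against 15.2 and 14.1 CPM (0.21 ± 0.08, adjusted p = 0.308). Pomc, the adrenocorticotropin precursor of arcuate neurons, was close to the limit of detection at 0.667 and 0.512 against 0.985 and 1.05 CPM (adjusted p = 0.371). Of the 28 genes, 14 had a positive and 14 a negative log2 fold change and the median was 0, with no stable sign over the alternatives.

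Neither hormone receptor gene was called. Nr3c1 stood at 220.8 and 236.2 CPM in sham and at 220.1 and 236.4 CPM in ADX, and the 95% interval of its log2 fold change ran from -0.13 to 0.13. Nr3c2 stood at 48.4 and 49.0 against 53.1 and 53.4 CPM (0.13 ± 0.06, interval 0.00 to 0.25, adjusted p = 0.384). Hsd11b1, the enzyme that regenerates corticosterone inside cells, stood at 12.0 and 13.9 against 9.38 and 11.0 CPM (-0.35 ± 0.14, adjusted p = 0.336). Hsd11b2, which inactivates it, was below 1 CPM in all 4 libraries. Agtr1a, the angiotensin receptor of the PVH, stood at 2.86 and 3.81 against 4.42 and 3.98 CPM (0.33 ± 0.17, adjusted p = 0.447). Of 27 genes of mineralocorticoid and angiotensin action, none was called at an adjusted p under 0.05 (4 higher and 2 lower at an unadjusted p under 0.05), and the median of -0.04 changed sign without ADX replicate 2.

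Of 44 genes that glucocorticoids are known to induce none was called at an adjusted p under 0.05, while 2 were higher and 10 lower at an unadjusted p under 0.05. Over all 12856 genes tested, 671 were higher and 976 lower at that unadjusted threshold. A negative log2 fold change was found in 26 of the 44 genes and a positive one in 18, with a median of -0.06 that was negative in every alternative run. The intervals of 3 well-known genes of the list show what size of change these data allow. Tsc22d3, the glucocorticoid-induced leucine zipper, stood at 57.7 and 56.0 against 54.8 and 59.2 CPM (interval -0.18 to 0.19). Fkbp5, a co-chaperone that dampens the glucocorticoid receptor, stood at 28.8 and 27.9 against 27.9 and 26.1 CPM (interval -0.26 to 0.12). Sgk1, a kinase that both steroid receptors induce, stood at 32.3 and 30.04 against 24.7 and 27.4 CPM (-0.26 ± 0.13, interval -0.56 to 0.04, adjusted p = 0.449). The groups overlapped in the first and second of these genes and not in Sgk1. The smallest p of the list belonged to Gjb6, the connexin 30 of astrocytes, at 64.6 and 66.2 against 51.7 and 49.2 CPM (-0.37 ± 0.08, adjusted p = 0.0695), followed by Lcn2, which was below 1 CPM, and Rhob (-0.30 ± 0.08, adjusted p = 0.149). Klf9, a transcription factor that steroid and thyroid hormones induce, had -0.13 ± 0.04 (adjusted p = 0.221). Among 32 immediate early genes none was called (2 higher and 2 lower at an unadjusted p under 0.05), and both Fos, at 9.38 and 7.98 against 12.3 and 5.35 CPM, and Egr1, at 22.4 and 13.8 against 17.5 and 15.1 CPM, overlapped. The median of that list, -0.10, changed sign without sham replicate 1 and without ADX replicate 2.

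**Figure D3:**
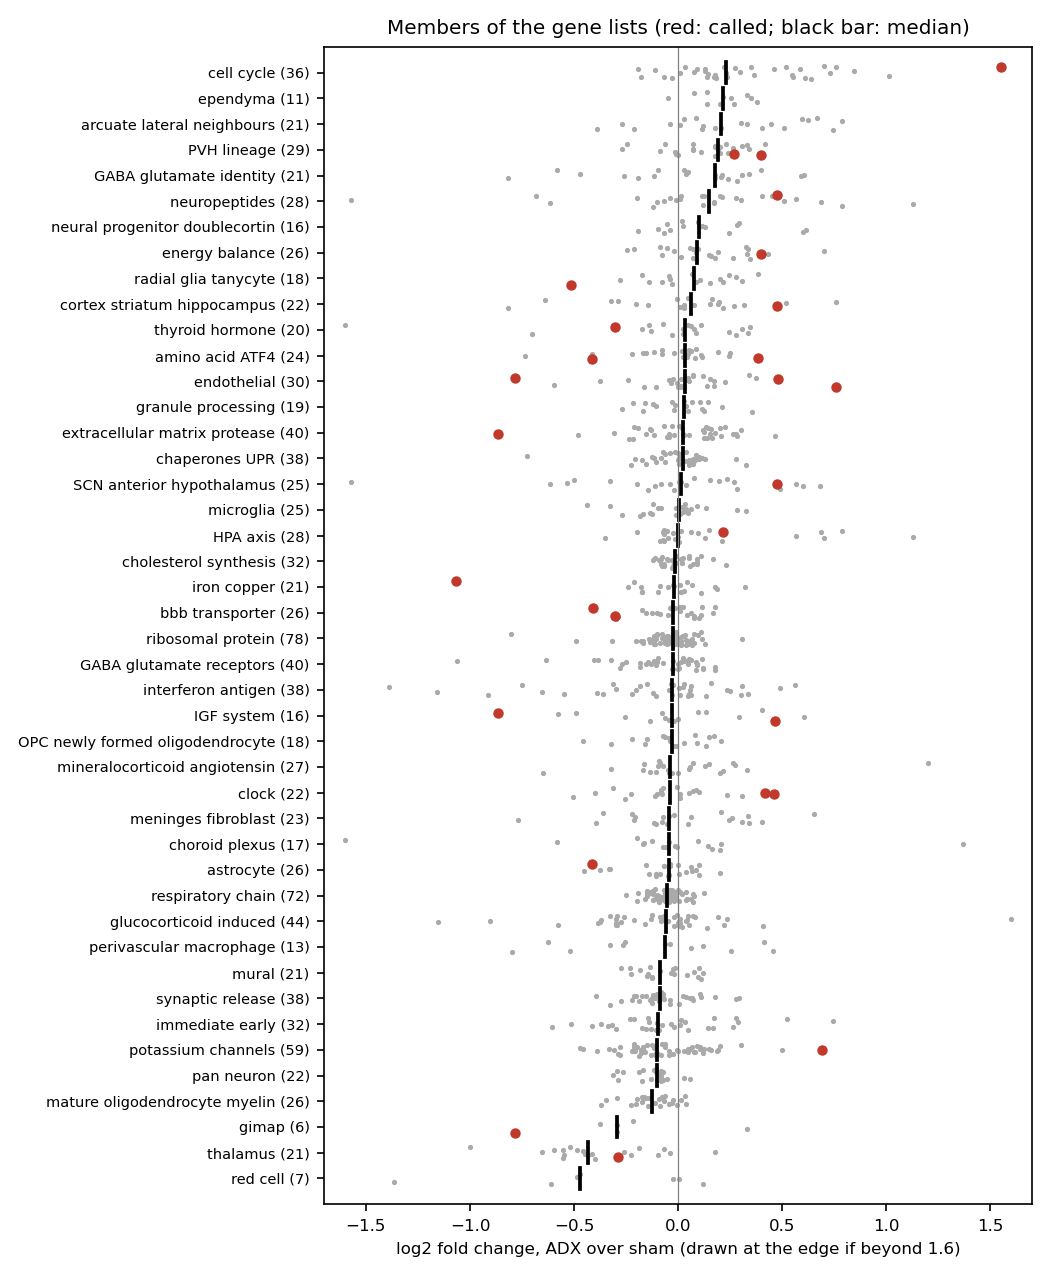
Log2 fold change of ADX over sham (x axis, points beyond 1.6 drawn at the edge) for the tested members of each gene list (rows, with the number tested), with called genes in red and the list median as a black bar. Medians run from the thalamus and red cell lists at the bottom to the cell cycle list at the top, and most lie within 0.1 of 0.

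Among neuropeptide genes the opioid precursor Penk rose, and it was the only one of 28 that was called. It stood at 53.4 and 44.0 CPM in sham and at 67.6 and 67.7 CPM in ADX, a rise of 39.1% (0.48 ± 0.08, adjusted p = 0.0368). The ADX libraries agreed closely while the sham libraries were farther apart, and the call held in 1 of the 4 fits without a library and was lost with the thalamus score (0.37, adjusted p = 0.0619). Galanin (Gal), which Avp neurons also make, stood at 10.6 and 9.04 against 13.8 and 14.2 CPM (0.51 ± 0.12, adjusted p = 0.0848). Vip, a peptide of the suprachiasmatic nucleus that lies in front of the PVH, stood at 3.45 and 6.44 against 1.22 and 2.13 CPM (-1.57 ± 0.44, adjusted p = 0.20). Oxytocin (Oxt) ran from 220.6 to 383.2 CPM within sham and stood at 279.1 and 276.4 CPM in ADX, so that the ADX values lay between the sham values (-0.12 ± 0.26). Thyrotropin-releasing hormone (Trh) stood at 62.5 and 71.3 against 76.3 and 86.3 CPM (0.28 ± 0.13, adjusted p = 0.425). A positive log2 fold change was found in 19 of the 28 genes, with a median of 0.15, or 0.08 with the thalamus score. Over all alternatives that median ran from 0.02 to 0.30.

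Another 7 called genes encode receptor, channel, secreted, membrane and signalling proteins, a grouping made after their values were seen. Of these 6 rose and 1 fell. Gpr101, an orphan receptor abundant in hypothalamus, stood at 71.0 and 74.5 CPM in sham and at 97.4 and 94.3 CPM in ADX (0.40 ± 0.06, adjusted p = 0.0104). Reln, the secreted guidance protein reelin, stood at 247.0 and 251.7 against 297.4 and 302.4 CPM (0.27 ± 0.05, adjusted p = 0.0416). The membrane peptidase gene Ecel1 stood at 78.7 and 79.2 against 103.1 and 91.9 CPM (0.31 ± 0.05, adjusted p = 0.0314). In each of the 3 the ADX values exceeded both sham values, and Gpr101 passed in 3 of the 4 fits without a library and with the thalamus score (adjusted p = 0.0313). Kcng1, a potassium channel subunit that modifies Kv2 channels, stood at 5.80 and 6.48 against 10.3 and 9.58 CPM (0.69 ± 0.12, adjusted p = 0.0233). Tmem132e stood at 45.8 and 43.7 against 56.8 and 53.9 CPM (0.31 ± 0.06, adjusted p = 0.049). Ssfa2, whose product anchors inositol trisphosphate receptors, stood at 140.3 and 140.4 against 166.2 and 171.1 CPM (0.26 ± 0.04, adjusted p = 0.0208). Rap1gap, a GTPase-activating protein that switches off Rap1, fell, with 352.7 and 382.7 CPM in sham and 286.9 and 298.9 CPM in ADX (-0.33 ± 0.05, adjusted p = 0.0208). With the thalamus score Ssfa2 and Rap1gap kept the call, at adjusted p = 0.047 and 0.0446. Reln, Ecel1, Kcng1 and Tmem132e lost it, at adjusted p = 0.0717, 0.0696, 0.0695 and 0.182. Their log2 fold changes with the score were 0.26, 0.30, 0.64 and 0.26. Reln and Kcng1 passed in 0 of the 4 fits without a library, and Ecel1, Tmem132e, Ssfa2 and Rap1gap in 1 each.

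Lists of regional neuronal genes had medians of both signs. Of 29 PVH lineage genes, Gpr101 and Reln rose, none fell, and 23 had a positive log2 fold change with a median of 0.19, which was 0.07 with the thalamus score and positive in every alternative. Of 21 arcuate and lateral hypothalamic genes, 17 had a positive log2 fold change (median 0.21, 0.02 with the thalamus score), and of 21 transmitter identity genes 14 had one (median 0.18, again 0.02 with the score). Both of these medians turned negative without sham replicate 2, and none of these genes was called (5 and 2 higher, 0 and 1 lower at an unadjusted p under 0.05). Of 21 thalamus genes, 20 had a negative log2 fold change, with a median of -0.43, and 1 was called. That gene was Inadl (also named Patj), a scaffold of tight junctions and cell polarity, at 80.5 and 85.9 CPM in sham and 66.9 and 69.3 CPM in ADX (-0.29 ± 0.05, adjusted p = 0.0314), which lost the call with the thalamus score (adjusted p = 0.0984). Among 25 genes of the suprachiasmatic nucleus and anterior hypothalamus Penk rose, and the median was 0.01. Among 22 genes of cortex, striatum and hippocampus Penk, which striatal neurons also make, was again the 1 called (median 0.06), and the cortical marker Neurod6 was at most 0.892 FPKM in the 4 libraries.

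Of 22 general neuron genes none was called, but 12 were lower and none higher at an unadjusted p under 0.05, and 20 had both ADX libraries below both sham libraries, as did 25% of all genes. Of all 12856 genes tested, 976 were lower and 671 higher at an unadjusted p under 0.05. The heavy neurofilament gene Nefh stood at 161.9 and 152.1 against 128.9 and 128.4 CPM (-0.29 ± 0.06, adjusted p = 0.0695). The synaptic fusion gene Snap25 stood at 1310 and 1308 against 1144 and 1155 CPM (-0.19 ± 0.05, adjusted p = 0.138). The median of the list was -0.10, and -0.08 with the thalamus score. Genes of synaptic release (38, none called, 11 lower and 2 higher at an unadjusted p under 0.05, median -0.09) and potassium channels (59, Kcng1 higher, none lower, 4 higher and 16 lower unadjusted, median -0.10) also had negative medians. Receptors for GABA and glutamate (40, none called, 1 higher and 8 lower at an unadjusted p under 0.05) had a median of -0.02. Genes that process and store peptides in granules (19, none called, 3 higher and 4 lower unadjusted) had a median of 0.03, which turned negative without sham replicate 2. Pcsk2, a convertase of peptide precursors, stood at 462.4 and 515.1 against 394.4 and 416.7 CPM (-0.27 ± 0.06, adjusted p = 0.11).

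Of the glial genes on the lists Fabp7 and Prodh were called, and both fell. Fabp7, the brain lipid binding protein of radial glia, tanycytes and astrocytes, stood at 25.1 and 29.1 against 18.3 and 19.6 CPM (-0.52 ± 0.09, adjusted p = 0.0314). Prodh, the mitochondrial enzyme that begins the breakdown of proline, stood at 86.7 and 87.1 against 67.2 and 63.2 CPM (-0.41 ± 0.08, adjusted p = 0.0451). Neither kept the call with the thalamus score (adjusted p = 0.0729 and 0.135). Of 26 astrocyte genes Prodh was the only one called, 17 had a negative log2 fold change, and the median was -0.05. Aldoc, the brain aldolase, came nearest to the threshold at 750.5 and 757.0 against 556.6 and 545.0 CPM (-0.45 ± 0.08, adjusted p = 0.051). DESeq2 called Aldoc (adjusted p = 1.09e-06). Aldoc passed in 8 of 17 alternatives, and not by edgeR with the thalamus score (adjusted p = 0.182). The water channel gene Aqp4 stood at 1534 and 1490 against 1718 and 1755 CPM (0.20 ± 0.05, adjusted p = 0.115), and Gfap, at 372.6 and 412.5 against 442.0 and 398.1 CPM, overlapped. Glul, the glutamine synthetase, had the same mean in both groups (interval -0.16 to 0.16).

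In the oligodendrocyte lineage none of 26 myelin genes and none of 18 precursor genes was called. Myelin genes had 3 lower and 0 higher at an unadjusted p under 0.05, 23 of 26 with a negative log2 fold change and a median of -0.12, which ran from -0.25 to -0.01 over the alternatives. The myelin gene Mobp stood at 409.5 and 363.5 against 312.5 and 285.8 CPM (-0.37 ± 0.08, adjusted p = 0.11). The myelin score was 6.31 and 6.10 in sham and 6.12 and 6.04 in ADX, so that sham replicate 2 lay close to the ADX libraries. Precursor genes had a median of -0.03 (2 higher and 3 lower unadjusted).

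Top2a rose, and most other genes of dividing cells had positive log2 fold changes without passing the test. Top2a, the topoisomerase that dividing cells use to untangle chromosomes, stood at 0.981 and 1.02 CPM in sham and at 2.69 and 3.21 CPM in ADX, a 2.93-fold higher level (1.55 ± 0.26, adjusted p = 0.0244). It kept the call with the thalamus score (1.75, adjusted p = 0.0446) and in 1 of the 4 fits without a library. Of 36 cell cycle genes Top2a was the only one called, 31 had a positive log2 fold change (48.3% of all genes had one), and in 22 both ADX libraries lay above both sham libraries (22.2% of all genes). Their median of 0.23 was positive in every alternative, between 0.05 and 0.29. Mki67, the gene of the proliferation antigen Ki-67, stood at 7.81 and 5.89 against 9.62 and 10.4 CPM (0.55 ± 0.13, adjusted p = 0.0944), and Cenpf, a kinetochore gene, at 1.41 and 1.5 against 2.33 and 2.42 CPM (0.70 ± 0.21, adjusted p = 0.187). Genes of neural progenitors and young neurons (16, none called, 5 higher and 2 lower unadjusted) had a median of 0.10. Dlx2, a transcription factor of GABA neuron progenitors, stood at 3.92 and 3.81 against 6.15 and 5.54 CPM (0.60 ± 0.13, adjusted p = 0.0695). Dcx, the doublecortin of migrating neurons, stood at 80.2 and 80.8 against 89.0 and 86.9 CPM (0.13 ± 0.04, adjusted p = 0.234).

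Genes of the cells that line the third ventricle were examined next. Of 11 genes of ciliated ependyma none was called, 5 were higher and 0 lower at an unadjusted p under 0.05, and 10 had a positive log2 fold change with a median of 0.22, or 0.08 with the thalamus score. Foxj1, the master regulator of motile cilia, stood at 19.2 and 18.9 against 25.6 and 23.9 CPM (0.38 ± 0.12, adjusted p = 0.226). Of 18 genes of radial glia and tanycytes Fabp7 fell, none rose, and the median was 0.08. The ependyma score was 3.34 and 3.26 in sham and 3.52 and 3.49 in ADX, and its part in the values of Top2a and the other dividing-cell genes was not tested.

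Genes often found in the vessel wall moved in both directions, though bulk tissue does not show which cells held their RNA. Aplnr, the apelin receptor, which was on the endothelial list, stood at 6.55 and 8.20 CPM in sham and at 11.1 and 13.9 CPM in ADX (0.76 ± 0.14, adjusted p = 0.0368). Palmd, which encodes palmdelphin, stood at 9.84 and 9.15 against 12.99 and 13.5 CPM (0.48 ± 0.09, adjusted p = 0.0368). Notch4, the endothelial Notch receptor, stood at 25.6 and 23.7 against 30.1 and 33.4 CPM (0.36 ± 0.07, adjusted p = 0.049). In all 3 the ADX libraries were above sham, but none kept the call with the thalamus score (adjusted p = 0.0619, 0.165 and 0.158). Gimap8, an immunity-associated GTPase of lymphocytes and endothelium, fell, with 11.5 and 9.88 CPM in sham and 6.33 and 6.05 CPM in ADX (-0.79 ± 0.14, adjusted p = 0.0314). Pxdn, the peroxidasin that cross-links basement membrane collagen, rose from 49.5 and 49.8 to 62.0 and 64.2 CPM (0.35 ± 0.06, adjusted p = 0.0368). Gimap8 and Pxdn also lost the call with the thalamus score, at adjusted p = 0.0829 and 0.143.

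Of 30 endothelial genes, Aplnr and Palmd rose and Gimap8 fell, and the median was 0.03, which turned negative without ADX replicate 2. The pan-endothelial genes Kdr, at 50.5 and 51.2 against 48.7 and 53.9 CPM, and Cldn5, at 46.8 and 48.0 against 45.3 and 52.2 CPM, overlapped. Of 26 transporters of the blood-brain barrier, 2 fell and none rose, with a median of -0.02. Slco1c1, which carries thyroxine into the brain, stood at 125.7 and 124.4 against 100.9 and 101.6 CPM (-0.30 ± 0.05, adjusted p = 0.0208). Abcg2, an efflux pump for drugs and steroid conjugates, stood at 20.04 and 21.7 against 16.0 and 15.5 CPM (-0.41 ± 0.07, adjusted p = 0.0368). Both had ADX below sham in every library, and Slco1c1 kept the call with the thalamus score (-0.34, adjusted p = 0.0185) while Abcg2 lost it (adjusted p = 0.0993). Mural cell genes (21, none called, 0 higher and 3 lower unadjusted) had a median of -0.08.

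Genes of iron, growth factor and amino acid handling were called in both directions. Heph, the copper-dependent ferroxidase hephaestin, which oxidises iron so that transferrin can carry it, stood at 32.6 and 34.6 CPM in sham and at 16.2 and 15.8 CPM in ADX, the deepest fall of all called genes (-1.07 ± 0.13, adjusted p = 0.0106). Its fall of 52.3% had an interval from -1.35 to -0.79 on the log2 scale, yet the adjusted p was 0.0663 with the thalamus score, and it passed in 1 of the 4 fits without a library. Of 21 iron and copper genes it alone was called (median -0.02, positive without sham replicate 2), and the ferritin gene Fth1 stood at 380.4 and 392.9 against 343.4 and 339.1 CPM (-0.18 ± 0.04, adjusted p = 0.11). Igfbp5, which binds insulin-like growth factors and is itself cut by Htra1, stood at 78.3 and 81.9 against 104.9 and 116.1 CPM (0.46 ± 0.07, adjusted p = 0.0208). Of 16 genes of that system Igfbp5 rose and Htra1 fell, and the median was -0.03, which turned positive with the thalamus score and without ADX replicate 2. Slc7a11, the exchanger that imports cystine for glutathione and exports glutamate, stood at 149.2 and 145.1 against 198.9 and 184.8 CPM (0.38 ± 0.06, adjusted p = 0.0208). With the thalamus score Igfbp5 kept the call (adjusted p = 0.047) and Slc7a11 lost it (adjusted p = 0.0663). Of 24 amino acid and Atf4-driven genes Slc7a11 rose and Prodh fell, and Asns, the asparagine synthetase that Atf4 induces, had a log2 fold change of -0.22 (adjusted p = 0.164).

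The last 4 called genes encode enzymes of metabolism and signalling and related proteins, and all fell. Aifm3, a mitochondrial member of the apoptosis-inducing factor family, stood at 61.6 and 59.8 CPM in sham and at 42.5 and 41.1 CPM in ADX (-0.54 ± 0.07, adjusted p = 0.00411). It passed in 2 of the 4 fits without a library and with the thalamus score (-0.61, adjusted p = 0.00235). Cyp4f4, a fatty acid hydroxylase, stood at 4.63 and 5.16 CPM in sham and at 2.51 and 2.80 CPM in ADX (-0.89 ± 0.14, adjusted p = 0.0208). Dusp3, a phosphatase of MAP kinases, stood at 350.8 and 344.7 against 289.0 and 290.0 CPM (-0.26 ± 0.04, adjusted p = 0.0233). Ckb, the brain creatine kinase, stood at 808.7 and 830.0 against 685.5 and 709.3 CPM (-0.23 ± 0.04, adjusted p = 0.0368). Dusp3 fell by 16.7% and Ckb fell by 14.9%, and the replicates of both genes lay close together. Cyp4f4, Dusp3 and Ckb lost the call with the thalamus score, at adjusted p = 0.0695, 0.0663 and 0.0695. Dusp3 passed in 0 of the 4 fits without a library, and Cyp4f4 and Ckb in 1 each.

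The remaining lists held few calls. Of 40 matrix and protease genes Htra1 alone was called (median 0.02, which turned negative with the thalamus score and without sham replicate 2); Serpinh1, the collagen chaperone, stood at 49.9 and 47.5 against 60.1 and 58.4 CPM (0.28 ± 0.06, adjusted p = 0.0695). Of 26 energy balance genes Gpr101 rose (median 0.09), and of 20 thyroid hormone genes Slco1c1 fell (median 0.04, which turned negative with the thalamus score). No gene was called among 32 of cholesterol synthesis (0 higher and 0 lower at an unadjusted p under 0.05), 38 chaperones (1 and 4), 78 ribosomal proteins (0 and 3) and 72 of the respiratory chain (0 and 7). Respiratory chain genes had a negative log2 fold change in 60 of 72 with a median of -0.06, while the medians of the other 3 lists lay between -0.02 and 0.02. The sign of that median changed in 5 alternatives for cholesterol synthesis and in 6 for ribosomal proteins.

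No immune, meningeal, plexus or red cell gene on the lists was called, apart from Gimap8. None was called among 25 microglial (0 higher and 1 lower unadjusted, median 0.01), 13 perivascular macrophage (1 and 0, -0.06), 38 interferon and antigen presentation (0 and 4, -0.03), 23 meningeal (3 and 1, -0.04) and 17 choroid plexus genes (1 and 2, -0.05). The median of each of these 5 lists changed sign in 2 to 6 alternatives. The choroid plexus transporter Ttr was at most 1.51 FPKM in the 4 libraries. Of 6 Gimap genes Gimap8 fell and none rose, with a median of -0.29. Haemoglobin RNA (Hbb, Hba1 and Hba2 summed) stood at 35.4 and 40.5 CPM in sham and at 25.9 and 20.5 CPM in ADX, and none of the 7 red cell genes tested was called (0 higher and 3 lower unadjusted, median -0.47). Reads of the near-identical globin genes can be split between them, so their single values are uncertain. The part of blood left in the vessels in the vascular results was not tested.

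The other 4 groups place the ADX levels beside those of rats given corticosterone. Htra1 was lowest in ADX, intermediate in supplemented ADX at 59.6 and 53.3 CPM, and highest in high Cort at 97.3 and 89.9 CPM. Heph followed the same order, with 30.6 and 24.2 CPM in supplemented ADX and 55.0 and 43.4 CPM in high Cort. Crh ran the other way, with 14.3 and 18.9 CPM in supplemented ADX and 2.35 and 4.16 CPM in high Cort. Aplnr and Top2a were likewise lowest in high Cort, at 3.44 and 4.56 CPM and at 0.324 and 0.665 CPM. Per3 and Per2 did not follow that order. Sham was the lowest of the 6 groups for both. Per2 stood at 76.2 and 74.6 CPM in high Cort and 71.4 and 68.8 CPM in supplemented ADX. At 1 h after acute corticosterone it stood at 91.0 and 95.6 CPM. By mean CPM, sham was also the highest group for Fabp7, Slco1c1 and Gimap8. It was the lowest for Notch4, Kcng1, Tmem132e, Adcyap1r1, Palmd and Penk. For Fabp7 the means were 27.12 in sham, 18.97 in ADX and 12.99 to 16.94 CPM in the other 4 groups. In all of these genes the groups given corticosterone differed from sham in the same direction as ADX. Whether sham itself stood apart was not tested. Levels between ADX and sham in supplemented ADX were not general. Penk and Avp stayed near their ADX levels there, at 71.6 and 64.6 CPM and at 148.9 and 141.8 CPM.

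**Figure D4:**
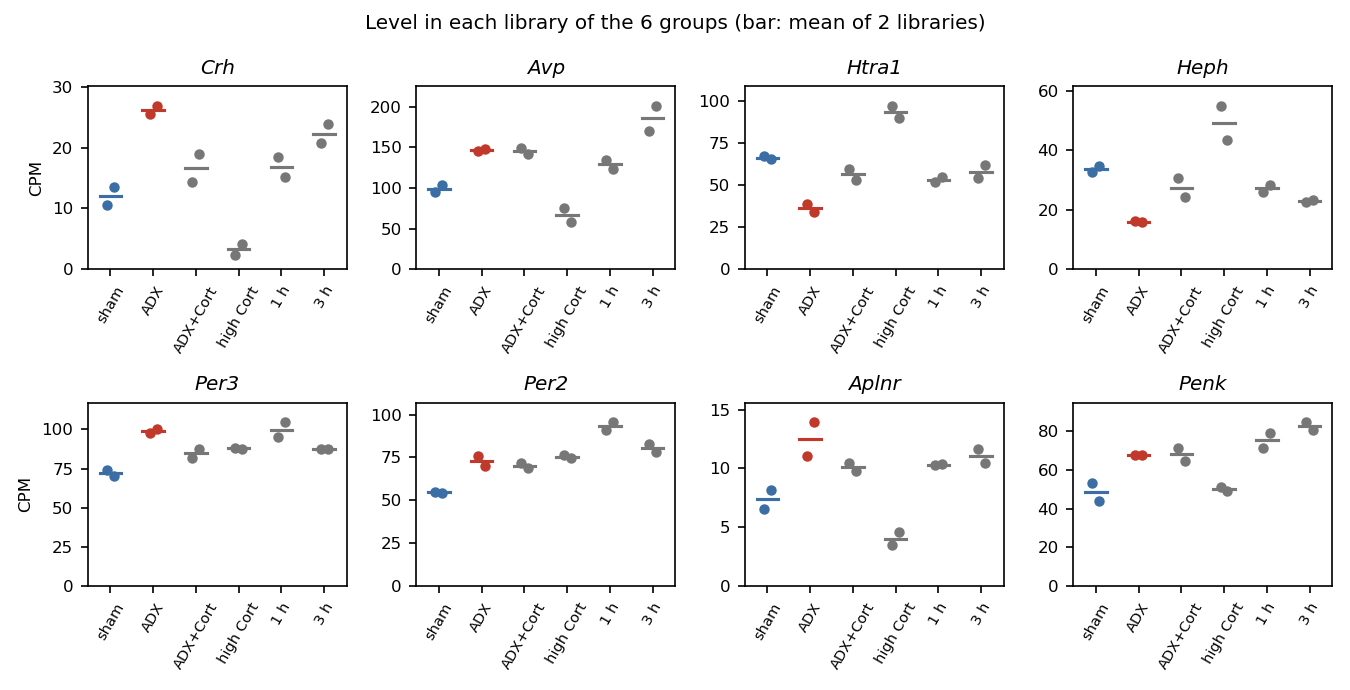
CPM of 8 genes (y axes, from 0) in each library of the 6 groups (x axis), with a bar at the mean of the 2 libraries; sham is blue, ADX red and the others grey, ADX+Cort is supplemented ADX, and 1 h and 3 h are acute corticosterone. Htra1 and Heph are lowest in ADX and highest in high Cort, Crh and Aplnr the reverse, and Per2 and Per3 are lowest in sham.

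High Cort and supplemented ADX share no library with ADX or sham, and their difference was added after the values were known. The groups differ in more than corticosterone, since the supplemented rats lacked adrenal glands, and both differences come from 1 model with the same estimate of the spread. It called 442 genes, 3.44% of those tested. Of the 30 genes called in ADX against sham, 26 lay on the opposite side there, where 64.1% of all genes tested did, and 17 were called, all 17 on the opposite side, as were 89.8% of the 442. Abcg2, which fell in ADX, had a log2 difference of 0.91 ± 0.07 in high Cort over supplemented ADX (adjusted p = 9.24e-06), Htra1 had 0.73 ± 0.08 (adjusted p = 0.000411) and Aifm3 0.44 ± 0.07 (adjusted p = 0.00248). Aplnr, which rose in ADX, had -1.33 ± 0.15 (adjusted p = 0.000434), Gpr101 -0.49 ± 0.06 (adjusted p = 0.000411) and Penk -0.45 ± 0.08 (adjusted p = 0.0108). The 4 on the same side were Fabp7 (-0.32), Slco1c1 (-0.12), Per2 (0.10) and Per3 (0.06), none of them called there. The count on the opposite side was 26 in each of 9 alternatives, and 13 were called when the thalamus score was a covariate. The genes and their signs were kept from the main fit. Alternatives without a sham or ADX library removed no library of this difference, so a stable count was largely fixed in advance. The thalamus score was 6.10 and 6.04 in high Cort and 5.56 and 5.52 in supplemented ADX, so that it differed in this comparison as well. High Cort and supplemented ADX came from separate processing runs of the authors, and the test used the unscaled fragments.

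How many genes were called depended on single libraries. Leaving out sham replicate 1 gave 148 calls, sham replicate 2 gave 10, ADX replicate 1 gave 4 and ADX replicate 2 gave 7. Of the 30 genes, 2 were called in all 4 of these fits, 2 in 3 (Gpr101 and Per2), 3 in 2 (Aifm3, Igfbp5 and Slc7a11), 16 in 1 and 7 in none. Of the genes called in only 1 of these fits, all but Ecel1 passed in the fit without sham replicate 1. That fit kept sham replicate 2, with its high thalamus score (6.27), as the only sham library. Adding the thalamus score as a covariate, 11 genes were called, 10 of them among the 30: Aifm3, Gpr101, Htra1, Igfbp5, Per2, Per3, Rap1gap, Slco1c1, Ssfa2 and Top2a. At an unadjusted p under 0.05 that fit held 924 genes, against 1647 in the main fit. Among the genes that lost the call, some log2 fold changes hardly moved (Heph -1.07 and -1.06 with the score, Prodh -0.41 in both). Others shrank (Penk 0.48 and 0.37, Adcyap1r1 0.22 and 0.17), and that of Aplnr grew (0.76 and 0.84). Without the acute 1 h libraries, whose replicates were far apart in thalamus score (5.25 and 4.47), 206 genes were called, all 30 among them. DESeq2 called 45 genes higher and 83 lower, where edgeR called 17 and 13. The direction of all 30 genes was the same in every alternative that gave them a value. Their ADX and sham libraries did not overlap, so leaving out a library could hardly have reversed it.

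**Figure D5:**
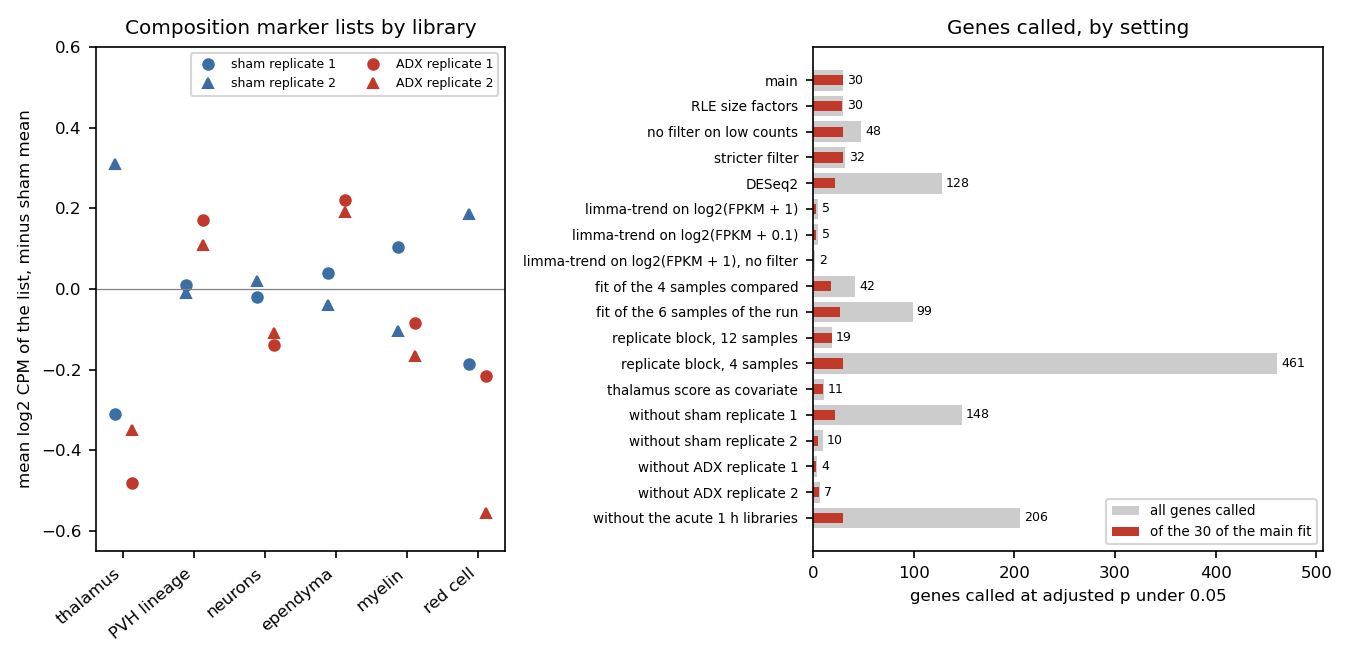
Left, the mean log2 CPM of 6 marker lists in each library less the sham mean (y axis); sham is blue, ADX red, circles are replicate 1 and triangles replicate 2, and sham replicate 2 is the highest library for thalamus. Right, the number of genes called under each setting (grey bars, x axis from 0) and how many of the 30 genes are among them (red bars), from 2 calls to 461.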

How the data were processed

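RNA from 12 samples was sequenced as TruSeq RNA libraries on an Illumina HiSeq2000, per the labels. Per the submitters' processing notes, Cufflinks 2.2.1, TopHat2 2.1.1 and CASAVA 1.8.2 were used with the build rn6. What each tool did, the annotation and the strand setting were not stated there. Without strand, reads of overlapping or antisense genes cannot be told apart. The deposited tables are Cuffdiff output of 1 library each. Their raw fragments, which the authors left unscaled, are expected counts: 233 genes held values that were not whole (0.751% of all values), which were rounded. The authors scaled the deposited FPKM values within 2 separate runs, and sham, ADX and high Cort shared one. The files mark 3 values in the 4 libraries as FAIL, and these were kept.

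The tests ran in edgeR 4.0.16 (R 4.3.3). The filterByExpr rule was applied over the 6 groups (minimum count 10, minimum total 15). TMM factors were used, and 1 robust quasi-likelihood model was fitted to all 12 libraries with a coefficient per group, since a pair of groups alone leaves little to estimate the spread from. Residual degrees of freedom were 6, the median prior degrees 8.9 and the biological coefficient of variation 0.047. Tests were 2-sided. An exact permutation test of 2 against 2 can give no p under 0.333. The script was tested on simulated data.

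The comparison and the 45 gene lists were chosen with earlier results of these data known, so lists are described by counts and medians and were not tested as sets. Named genes were all called genes, 16 genes of the stress axis and hormone response, and up to 3 members of smallest p in each list; others named in the text were chosen after their values were seen. Alternatives were RLE factors, no filter, a stricter one (1 CPM or more in 4 libraries), DESeq2 1.42.0, limma-trend 3.58.1 on log2 of FPKM plus 1 or 0.1, fits of 4 or 6 libraries, a replicate block, the thalamus score as a covariate and leaving out each library. Scores are means of log2 CPM with a prior count of 2. Promoters are RefSeq sequences of the build GRCr8, and gene positions are not given because the files use rn6.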

Additional observations from a re-analysis of the deposited data

How the results depend on the processing

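With 2 libraries per group the counts of called genes moved with most settings, while no direction of a called gene reversed. As the groups did not overlap in these genes, most settings could hardly have reversed one. The main fit called 30 genes, 17 higher and 13 lower in ADX. Size factors by RLE (30 genes, 29 of them shared) and a stricter filter (32) changed little. Without a filter the counts were 48, 28 and 20 for all, higher and lower genes. DESeq2 gave 128, 45 and 83, and it returned an adjusted p for 22 of the 30 genes, all of which it called. Limma-trend on log2 of FPKM called 5, 1 and 4 with a pseudocount of 1 and the same 5, 1 and 4 counts with 0.1, with 3 of the 30 genes among them each time. Without a filter it called 2, 0 and 2, with 0 of the 30 among them (1868 genes at an unadjusted p under 0.05). The fit of the 4 samples called 42 genes, 24 of them lower, and 18 of the 30 were among them; the fit of the 6 samples of the run called 99, 32 and 67. The thalamus score as a covariate left 11, 7 and 4. Leaving out 1 library gave 4 to 148 genes, 3 to 70 higher and 1 to 78 lower. Without the acute 1 h libraries, which was tried only after seeing the data, the counts were 206, 67 and 139. A replicate block in the 12 samples gave 19, 11 and 8, and in the 4 samples 461, 106 and 355. Nothing in the labels ties a replicate number to an animal or day, and the deviations of same-numbered libraries correlated at 0.143 across 10172 genes. Fewer samples or genes enter some of these fits; otherwise the cause of the differences between settings was not tested. Depth limits genes near 1 CPM, such as Top2a, Pomc and Hsd11b2.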

Other observations

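The ribosomal protein pseudogene Rpl37a-ps1 had 0 fragments in both sham libraries and 424 and 195 in the ADX libraries. It was chosen after its values were seen and was not called. The other groups held 0 and 24 fragments in high Cort, 311 and 73 in supplemented ADX, 331 and 151 in acute 1 h and 236 and 14 in acute 3 h, so that it was at 0 in 3 of the 12 libraries and varied widely within groups. Its parent gene Rpl37a stood at 41.9 and 45.8 CPM in sham and at 25.9 and 36.7 CPM in ADX. Reads of near-identical copies can be split between them, so both values are uncertain.

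The interferon-induced gene Ifit1 stood at 4.31 and 2.12 CPM in sham and at 1.14 and 1.30 CPM in ADX (-1.39 ± 0.30, adjusted p = 0.081 by edgeR). Its adjusted p ran from 0.00873 to 0.464 over the 4 fits without a library. Col3a1, a collagen of vessels and meninges, stood at 11.8 and 12.0 CPM in sham and at 15.4 and 22.2 CPM in ADX (0.65 ± 0.16, adjusted p = 0.14). Mmp14, a membrane protease, stood at 22.2 and 21.4 against 16.0 and 15.3 CPM (-0.48 ± 0.13, adjusted p = 0.161).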
